A study of Homo sapiens with 8 samples.

Results

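Aminoacyl-tRNA synthetases are the enzymes that join each amino acid to its transfer RNA. Their genes were picked from the deposited table by symbol, as the one-letter code of the amino acid followed by ARS, ARS1 or ARS2, together with FARSA, FARSB, EPRS1, EARS2 and PARS2. The rule found 37 of the 60664 genes listed, of which 20 encode the cytosolic enzymes and 17, with names ending in 2, encode the mitochondrial enzymes. The rule used no measured value.

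RNA was sequenced from the human monocytic leukemia line THP-1 and from a DAC-resistant THP-1 line that the study raised by long exposure to DAC. Decitabine (DAC), an analogue of deoxycytidine, is incorporated into DNA and traps the enzymes that methylate it. The 4 groups were parental cells with DMSO, parental cells with 1 µM DAC, resistant cells with DMSO and resistant cells with 1 µM DAC, all kept for 6 days, with 2 biological replicates each and 8 libraries in all. The labels give all of them the genotype WT and do not say whether the resistant line is 1 clone. The DMSO groups therefore compare the lines, while the DAC groups add the drug to each line.

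The cytosolic synthetases charge the transfer RNAs that serve the ribosomes of the cytoplasm, and 8 of them sit together in a multisynthetase complex. The mitochondrial enzymes are encoded in the nucleus, imported, and serve the few proteins made inside the organelle. When amino acids run short or protein folding fails, cells phosphorylate the initiation factor eIF2, and the transcription factor ATF4 is then made and switches on amino acid transporters, amino acid biosynthesis and many cytosolic synthetases. This programme is called the integrated stress response. WARS1 stands apart because interferon gamma also induces it.

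The deposited unit was FPKM, a read count corrected for gene length and library size. Between 28587625 and 33307546 reads on genes were recovered per library from the steps in the values, with approximate reads for 1884 genes. These sums lie above the totals by which the FPKM were scaled, 27480502 and 31916835 in the same libraries, for a reason not known. Except for VARS2, the members had from 65 reads (SARS2) upwards in their poorest library. Differences are on the log2(FPKM + 1) scale from limma, with Benjamini-Hochberg adjusted p-values over 14899 genes, and a gene was called at an adjusted p under 0.05. Of the 10 monocytic markers checked, all 10 were above 0 in every library, and their sum in parental cells was 433 and 449 FPKM (DMSO) and 521 and 529 FPKM (DAC), and it was 325 to 340 in resistant cells. Among them CD14 and LYZ were highest in parental cells with DAC, at 18.98 and 20.8 FPKM and at 46.7 and 48.9 FPKM, while CD4 was lower with DAC there (151 and 163 FPKM to 121 and 125), as was CD33 (9.92 and 9.74 to 8.10 and 7.61). Sums over 3 markers each reached at most 4.27 FPKM for B cells, 0.559 for T cells, 3.05 for erythroid cells, 0.528 for epithelial cells and 6.33 for fibroblasts. The fibroblast sum was 0.693 and 0.644 FPKM in parental cells with DMSO and 5.59 and 5.05 with DAC. In resistant cells it was 6.26 and 6.33 with DMSO and 4.78 and 4.72 with DAC. The part of these shifts in the synthetase values was not tested. In bulk RNA, a smaller share of cells that express a gene and less of its RNA per cell cannot be told apart.

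Without drug, the parental cells held most synthetase RNA in the cytosolic set. Summed over its 20 genes the level was 936 and 940 FPKM, against 132 for the 17 mitochondrial genes in both libraries. TARS1, the threonine enzyme, was highest by FPKM with a mean of 180.6 ± 0.958 (SD, n = 2), followed by EPRS1, which charges glutamate and proline, with 163 ± 0.612. The ranks below TARS1 depend on the length used, because FPKM divides by all annotated exon bases. With reads divided by the bases of the main transcript, AARS1 ranked 2 and EPRS1 ranked 3. GARS1 ranked 15 by its 17366 exon bases, and 4 when its reads were divided by the 2437 bases of its main transcript. VARS2 was at the floor, with 2 to 10 reads and at most 0.0506 FPKM in any library. It did not pass the filter of at least 1 FPKM in at least 2 libraries, and its exons share 63.0% of their bases with another annotated gene on the same strand. The other 36 members were tested.

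DAC lowered most cytosolic synthetases in parental cells and left the mitochondrial set mixed. Of 20 cytosolic genes, 15 fell, 4 rose and VARS1 was not called, and quantile scaling turned the direction of TARS1 among those that fell. Their median log2 difference was -0.55, beside 0.06 over all genes tested. In the same comparison, 57.7% of all genes were called, 33.6% higher and 24.1% lower. A stricter rule, which asked for a log2 difference of at least 1 in size beside an unadjusted p no higher than 0.01, called 4 cytosolic genes, all lower. It called 9.31% of all genes in either direction and 2.64% as lower. Summed FPKM of the cytosolic set went from 936 and 940 to 673 and 684, with no overlap between the groups. Over the 36 synthetases tested, the 2 groups did not overlap for 30, as for 79.4% of all genes.

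**Figure D1:**
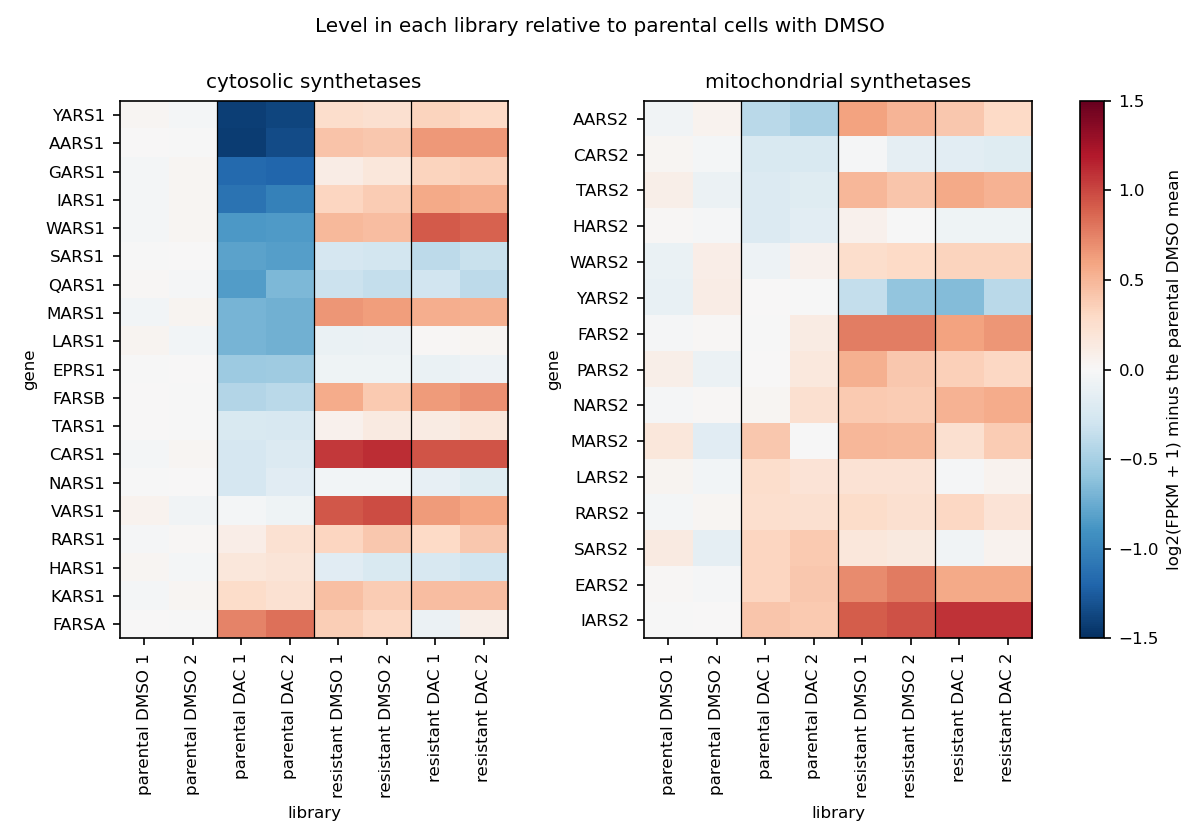
Level of 34 tested synthetases in each of the 8 libraries, as log2(FPKM + 1) minus the mean of the parental DMSO libraries, with cytosolic genes on the left and mitochondrial genes on the right, each ordered by their difference with DAC in parental cells. Blue is lower and red is higher than parental DMSO, and the parental DAC columns are blue for most cytosolic genes, down to -1.40 for YARS1.

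The falls over 1 on the log2 scale were in YARS1, AARS1, GARS1 and IARS1. YARS1, the tyrosine enzyme (GRCh38 chr1:32775237-32818031), was at 37.4 and 36.03 FPKM with DMSO and at 13.2 and 13.5 with DAC in parental cells. In resistant cells it was at 44.2 and 43.5 with DMSO and 46.7 and 45.3 with DAC. The parental DAC libraries were below all the others, and the fall in parental cells was -1.40 ± 0.03 (SE, limma adjusted p = 3.48e-07). AARS1, the alanine enzyme (chr16:70251983-70289707), went from 65.3 and 65.2 FPKM to 23.8 and 25.1 with DAC in parental cells. Resistant cells had 88.4 and 86.7 FPKM with DMSO and 103 in both libraries with DAC. Its groups did not overlap, and the parental difference was -1.38 ± 0.03 (SE, limma adjusted p = 2.54e-07), a mean 0.374 times that with DMSO.

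GARS1 charges glycine in both the cytosol and the mitochondria from 1 gene (chr7:30580533-30634033). Its FPKM were 23.6 and 24.5 with DMSO and 10.2 and 9.97 with DAC in parental cells. They were 26.0 and 27.3 with DMSO and 30.6 and 31.1 with DAC in resistant cells. The level in parental cells with DAC was 0.419 times that with DMSO (log2 difference -1.18 ± 0.04 SE, limma adjusted p = 1.18e-06). IARS1, the isoleucine enzyme of the multisynthetase complex (chr9:92210207-92293854), read 15.8 and 16.5 FPKM with DMSO, 6.97 and 7.52 with DAC in parental cells, and 20.4, 21.3, 24.5 and 24.03 in the resistant libraries in the same order. Again the parental DAC pair lay below every other library, with a difference of -1.06 ± 0.05 (SE, limma adjusted p = 5.29e-06).

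WARS1, the tryptophan enzyme (chr14:100333790-100376805), had 51.3 and 53.4 FPKM with DMSO and 28.4 and 28.7 with DAC in parental cells. In resistant cells the libraries held 74.0 and 72.7 with DMSO and 100.01 and 97.4 with DAC. The groups were ordered parental DAC, parental DMSO, resistant DMSO and resistant DAC with no overlap. The parental difference was -0.85 ± 0.03 (SE, limma adjusted p = 1.92e-06). In the same parental cells, all 8 tested genes of a 10-gene list of interferon-gamma type genes rose, with a median of 1.96, where 33.6% of all genes were called higher. The guanylate-binding protein gene GBP5 rose by 2.40. GBP1, at a mean of 4.995 FPKM in parental cells with DAC and at most 0.082 in the other groups, passed the filter only through the group where it is high. In resistant cells 1 gene of that list rose and 1 fell with DAC, where 11.2% of all genes were called, beside the rise of WARS1 given further on. Between the lines with DMSO, 5 of the 8 were higher and 1 lower in resistant cells, with a median of 0.38, beside 0.48 for WARS1 and 31.3% of all genes called higher and 26.2% lower.

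LARS1 and QARS1, the leucine and glutamine enzymes of the complex, fell by less. LARS1 (chr5:146110566-146182696) read 25.4 and 24.1 FPKM with DMSO and 14.9 and 14.6 with DAC in parental cells, and 22.9, 23.2, 24.9 and 25.2 in resistant cells. QARS1 (chr3:49095932-49105130) read 41.7 and 40.5, then 22.6 and 25.4 in parental cells, and 32.6, 31.8, 33.4 and 31.1 in resistant cells. Both were lowest in the 2 parental DAC libraries, with differences of -0.71 ± 0.03 and -0.75 ± 0.06 (SE, limma adjusted p = 8.91e-06 and 7.28e-05). The resistant groups of QARS1 overlapped each other. Of the 8 synthetases of the complex, 6 fell and 2 rose with DAC in parental cells, with a median of -0.63. The remaining 12 cytosolic genes had a median of -0.33, with 9 lower and 2 higher. By comparison, 24.1% of all genes were called lower and 33.6% higher.

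**Figure D2:**
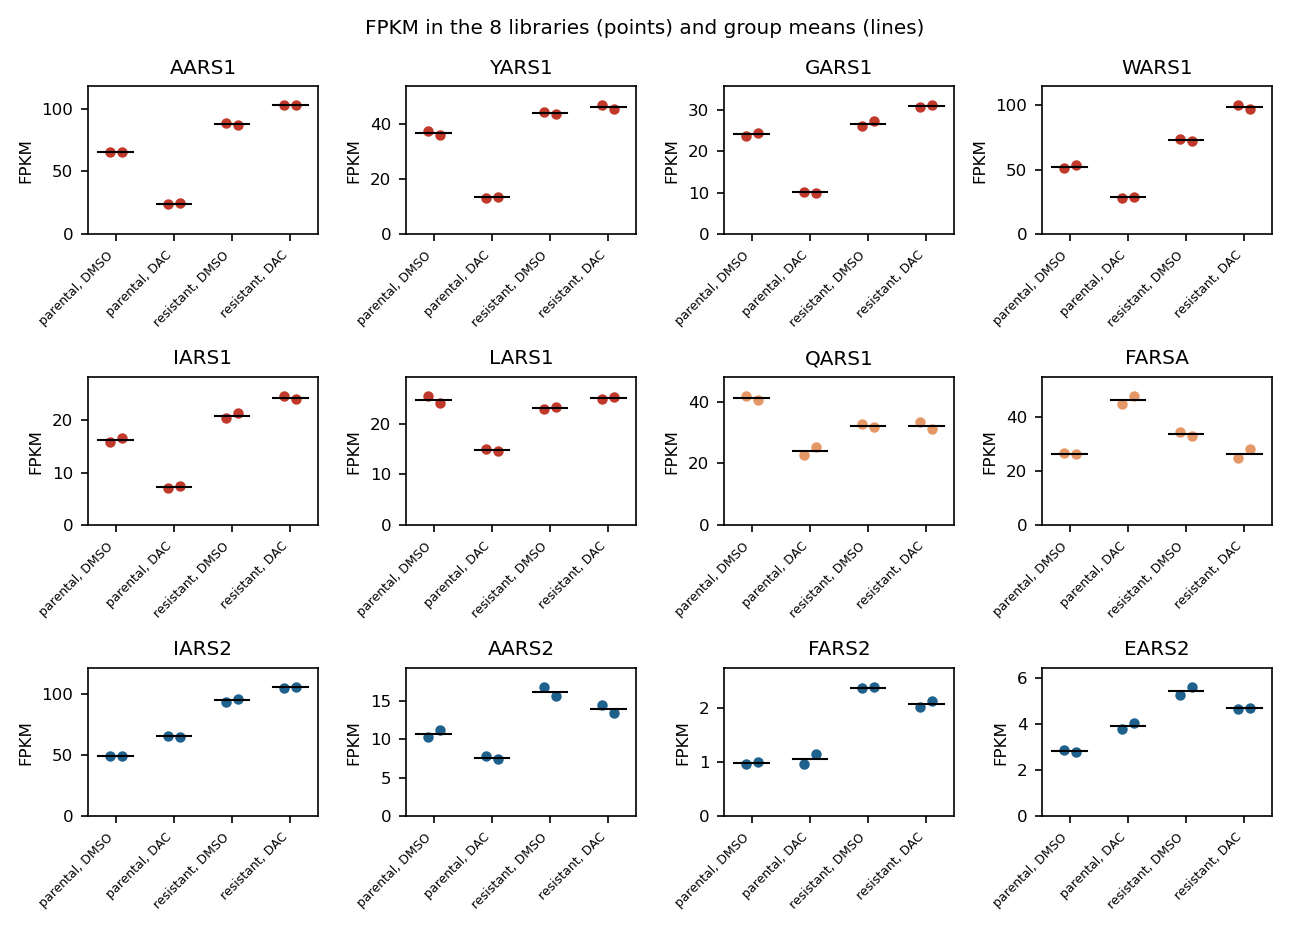
FPKM of 12 synthetases in the 8 libraries, 1 panel per gene, with points for libraries, lines for group means and every axis starting at 0. AARS1, YARS1, GARS1, WARS1, IARS1, LARS1 and QARS1 are lowest in parental cells with DAC, FARSA is highest there, and IARS2, AARS2, FARS2 and EARS2 are higher in resistant than in parental cells.

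FARSA, KARS1, HARS1 and RARS1 went against the other cytosolic genes and rose. FARSA encodes the catalytic subunit of the phenylalanine enzyme (chr19:12922479-12934037). It was at 26.7 and 26.2 FPKM with DMSO and at 44.8 and 47.7 with DAC in parental cells, and at 34.5 and 33.2 with DMSO and 24.9 and 28.1 with DAC in resistant cells. The parental DAC libraries were the highest of the 8, and the parental difference was 0.78 ± 0.06 (SE, limma adjusted p = 6.52e-05). Its partner FARSB encodes the other subunit of the same enzyme (chr2:222566899-222656092). FARSB was at 7.35 and 7.33 FPKM with DMSO and at 5.15 and 5.29 with DAC in parental cells, a difference of -0.42 (limma adjusted p = 0.00111). The 2 subunits of 1 enzyme thus changed in opposite directions in parental cells. Their opposite signs in the difference between the lines' DAC effects draw on the same parental libraries. With DAC in resistant cells FARSA fell and FARSB was not called, at 0.19.

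The other rises were small. KARS1, the lysine enzyme (chr16:75627474-75648643), went from 31.8 and 33.4 to 39.6 and 38.5 FPKM, a log2 difference of 0.25 (limma adjusted p = 0.00121). HARS1, the histidine enzyme (chr5:140673035-140691537), went from 5.77 and 5.48 to 6.45 and 6.57, a difference of 0.18. RARS1, the arginine enzyme (chr5:168486451-168519301), went from 18.9 and 19.5 to 20.7 and 22.6, a difference of 0.17. The groups did not overlap for any of these 3 genes, but the call of HARS1 was lost under quantile scaling at 0.09 and that of RARS1 at 0.07. Without single libraries the call of HARS1 was lost in 3 cases, parental DMSO replicate 2 and either parental DAC replicate, and that of RARS1 in 5, both parental DMSO replicates, both resistant DMSO replicates and parental DAC replicate 2, with RARS1 at 0.10 without the last.

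The cytosolic genes were also grouped by known regulation and by structural class. Of 13 cytosolic synthetases listed as ATF4 targets from general knowledge, 12 fell and 0 rose in parental cells, with a median of -0.71, and VARS1 was not called. Of the 7 others, 3 fell, QARS1 and FARSB among them, and 4 rose, with a median of 0.17. In the same comparison 24.1% of all genes were called lower and 33.6% higher, with a median of 0.06. Class I enzymes, which share one type of catalytic fold, had a median of -0.71 over 10 cytosolic genes, and class II enzymes a median of -0.33 over 10. Both lists were chosen with results of these data known, and no test was made between them.

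The promoters of the ATF4-listed genes were read for TGATGNAA, the letters of the element that ATF4 and its C/EBP partners are known to bind, on both strands. RefSeq windows (GRCh38.p14) from 250 bases before to 50 after the start were at hand for 30 of the 37 members. The letters occurred in 7 of 10 ATF4-listed genes with a window (70%), in 0 of 6 other cytosolic genes, in 1 of 14 mitochondrial genes, and in 4.46% of 27305 genes with a window. A gene was counted if any of its windows held the letters. CARS1, GARS1 and TARS1 had 2 windows each, from different starts, and the letters were absent from the other window. The windows are shown because 7 of the genes that fell share them. Each is 30 bases on the gene's own strand, 5′ to 3′, and the capitals mark the 8 matching bases, which appear as the reverse complement where the match is on the opposite strand.
AARS1: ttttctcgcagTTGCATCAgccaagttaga
GARS1: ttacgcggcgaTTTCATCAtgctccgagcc
IARS1: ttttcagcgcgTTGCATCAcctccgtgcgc
MARS1: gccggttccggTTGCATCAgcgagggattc
CARS1: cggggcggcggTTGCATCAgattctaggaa
TARS1: gcgcctttcgaTTGCATCAgctggtccagc
NARS1: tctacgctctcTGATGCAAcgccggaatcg
YARS2: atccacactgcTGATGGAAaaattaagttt

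The AARS1 window lies at chr16:70289675-70289704 (minus strand), GARS1 at chr7:30594834-30594863 (plus), IARS1 at chr9:92293692-92293721 (minus) and MARS1 at chr12:57488053-57488082 (plus). CARS1 lies at chr11:3057407-3057436 (minus), TARS1 at chr5:33440956-33440985 (plus), NARS1 at chr18:57621804-57621833 (minus) and YARS2 at chr12:32756076-32756105 (minus). Of the 7 cytosolic matches, 6 have the same 8 bases on 1 strand or the other, and GARS1 differs from them at the variable letter. The matching genes fell with DAC in parental cells by sizes from -1.38 in AARS1 to -0.21 in NARS1, and YARS2, the mitochondrial tyrosine gene, was at 0.00. The 3 ATF4-listed genes whose windows lack the letters fell as well, EPRS1 by 0.54, SARS1 by 0.82 and WARS1 by 0.85 on the log2 scale. LARS1, VARS1 and YARS1 had no window. The letters CACGTG, the E-box that MYC and related factors are known to bind, occurred in IARS1, CARS2, EARS2 and MARS2 and in 8.77% of all genes. A match describes letters only, and binding was not measured here.

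The mitochondrial enzymes moved less with DAC in parental cells. Of 16 tested, 6 rose, 4 fell and 6 were not called, with a median of 0.11 beside 0.06 over all genes, of which 33.6% were called higher and 24.1% lower, and quantile scaling left 4 higher and 4 lower. None passed the stricter rule. The added 1 FPKM shrinks changes of low genes more, and the lowest genes by FPKM are in this set. Over the cytosolic genes tested, mean FPKM with DAC was 0.363 (YARS1) to 1.75 (FARSA) times that with DMSO. Over the mitochondrial genes tested it was 0.709 (AARS2) to 1.59 (SARS2) times. IARS2, the mitochondrial isoleucine enzyme (chr1:220094132-220148041), was the highest of the set by FPKM, at 48.9 and 49.4 with DMSO and 65.9 and 64.6 with DAC in parental cells, and at 93.4, 96.1, 105 and 105 in resistant cells. Each group lay above the one before it, and the parental rise was 0.40 ± 0.02 (SE, limma adjusted p = 2.20e-05). The mitochondrial sum rose from 132 in both parental DMSO libraries to 150 and 149 with DAC, and without IARS2 it was 83.3 and 83.1 with DMSO and 83.7 and 84.7 with DAC. Most of the rise of the sum lay in IARS2. As a share of all synthetase FPKM, the mitochondrial set went from 12.4% and 12.3% to 18.2% and 17.9%.

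EARS2, the mitochondrial glutamate enzyme (chr16:23520754-23557731), had 2.86 and 2.79 FPKM with DMSO and 3.76 and 4.05 with DAC in parental cells, and 5.23, 5.58, 4.65 and 4.69 in resistant cells. It rose by 0.36 ± 0.06 in parental cells (SE, limma adjusted p = 0.00188), and the parental groups lay below both resistant groups. LARS2, RARS2 and SARS2 also rose, by 0.24, 0.24 and 0.35. The call of LARS2 was lost without parental DMSO replicate 2, at 0.19, or without either parental DAC replicate. SARS2, with 65 to 122 reads per library and 48.2% of its exon bases shared with another gene on the same strand, is uncertain, and its call was lost under quantile scaling at 0.22 and when any library other than parental DMSO replicate 1 was left out.

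AARS2, the mitochondrial alanine enzyme (chr6:44298731-44313347), fell, from 10.3 and 11.2 to 7.83 and 7.39 FPKM in parental cells, and stood at 16.8, 15.7, 14.5 and 13.4 in resistant cells. Its parental difference was -0.45 ± 0.06 (SE, limma adjusted p = 0.00102). CARS2 (4.52 and 4.32 to 3.62 and 3.63 FPKM), HARS2 (11.7 and 11.3 to 9.77 and 10.2) and TARS2 (10.7 and 9.43 to 8.56 and 8.71) fell by 0.23, 0.18 and 0.20 on the log2 scale with no overlap, and each of these 3 calls was lost without parental DMSO replicate 1, at -0.20, -0.16 and -0.11. Those of CARS2 and TARS2 were lost without either parental DAC replicate as well, at -0.23 in both cases for CARS2 and at -0.19 and -0.21 for TARS2. HARS1 and HARS2 lie head to head with 108 shared exon bases on opposite strands. The counting is not stated to use strand, so reads in that overlap cannot be told apart.

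Enzymes for the same amino acid could be set side by side in 16 cytosolic and mitochondrial pairs, in which EPRS1 stands against both EARS2 and PARS2, which divide its work. FARS2, at 0.06 with DAC in parental cells, was paired with FARSA (0.78) only and not with FARSB (-0.42). With DAC in parental cells the mitochondrial value lay above the cytosolic one in 13 of 16 pairs, with a median gap of 0.87 on the log2 scale. Both genes were called in opposite directions in 6 pairs. In 5 of them the cytosolic gene fell and the mitochondrial gene rose, among them IARS1 and IARS2, SARS1 and SARS2, LARS1 and LARS2, and EPRS1 and EARS2, and in HARS1 and HARS2 the order was turned. Both fell in the alanine, cysteine and threonine pairs, and both rose in the arginine pair. EPRS1 and IARS2 are neighbours on chromosome 1, 47.6 kb apart, and changed in opposite directions, by -0.54 and 0.40.

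**Figure D3:**
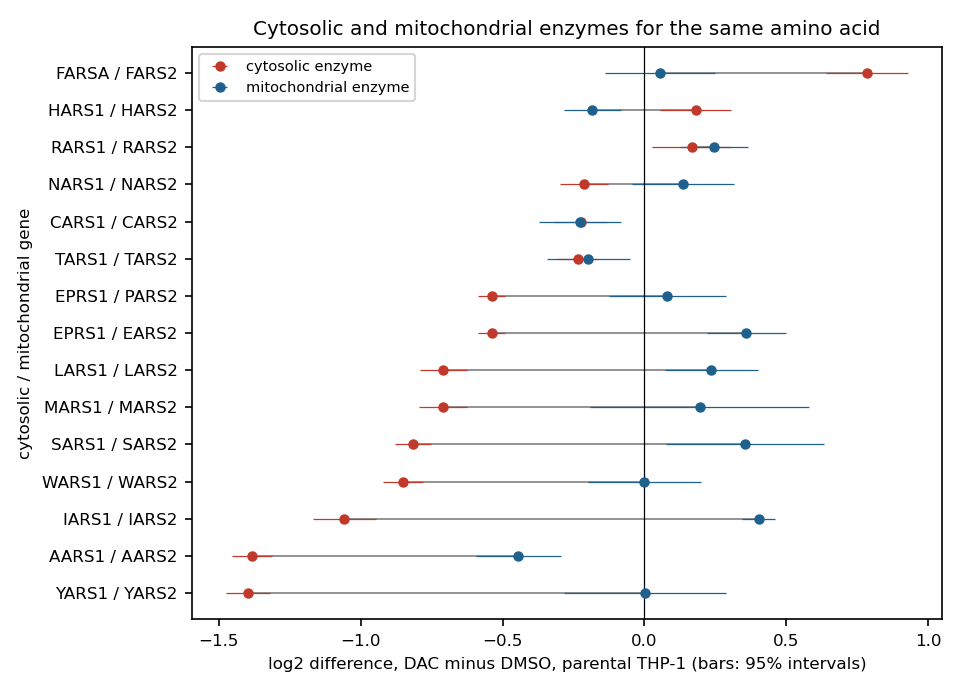
Log2 difference with DAC in parental cells for the cytosolic (red) and the mitochondrial (blue) enzyme of each amino acid, 1 row for each of 15 pairs, with 95% intervals from limma. The blue point lies to the right of the red one in 12 of these 15 pairs, while FARSA and HARS1 lie to the right of their mitochondrial partners.

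Most other genes of the stress programme fell too. Of 25 tested genes in a list of the integrated stress response, 20 fell and 5 rose with DAC in parental cells, with a median of -0.94. Among all genes tested, 24.1% were called lower and 33.6% higher, with a median of 0.06. ATF4 itself went from a mean of 209 to 108 FPKM (log2 -0.94). The largest falls were in PSAT1 and PHGDH, enzymes of serine synthesis, with -2.74 and -1.98, and in ALDH1L2, a mitochondrial folate enzyme, with -2.56. The 5 that rose were PPP1R15A, ATF3, DDIT3, CEBPB and SLC38A2. DDIT3 shares 355 exon bases with MARS1 on the opposite strand, and it rose by 0.44 while MARS1 fell by 0.71. MARS1, the methionine enzyme (chr12:57475445-57517569), had 40.9 and 43.6 FPKM with DMSO and 25.7 and 25.2 with DAC.

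Among partners of the synthetases, 4 of 12 tested fell and 0 rose with DAC in parental cells, XPOT, the exporter of transfer RNA from the nucleus, by 0.71 on the log2 scale, and AIMP1, a scaffold of the complex, by 0.24. SEPSECS, which makes selenocysteinyl-tRNA, and QRSL1, part of the mitochondrial glutamine pathway, fell by 0.36 each. Elongation factors, which carry the charged transfer RNA to the ribosome or move the ribosome on, fell in all 4 tested genes of 5 listed, by 1.54 in EEF1A1, 1.45 in EEF2 and 1.44 in EEF1B2. Of 4 tested genes in a list of the eIF2 kinases and GCN1, the RNA-dependent kinase EIF2AK2 rose by 1.68, EIF2AK1 and EIF2AK4 fell by 0.27 and 0.59, and GCN1 was not called. Of 76 tested mitochondrial ribosomal proteins, 28 rose and 21 fell, with a median of 0.07 beside 0.06 over all genes. The shares over all genes were 33.6% higher and 24.1% lower, near those of the ribosomal proteins, and 57.7% were called in either direction, against 4 of the 12 partners.

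In resistant cells DAC moved 6 cytosolic synthetases. Of the 20 cytosolic genes, 4 rose, 2 fell and 14 were not called, with a median of 0.02 beside 0.01 over all genes, and 11.2% of all genes were called, 5.88% higher and 5.35% lower. Voom on the recovered reads called 12 of the 20, 6 higher and 6 lower, and 3 were called in a fit to the 4 resistant libraries alone or without resistant DMSO replicate 1 or either resistant DAC replicate. The groups did not overlap for 30 of the 36 synthetases, and for 56.3% of all genes. None passed the stricter rule, by which 0.235% of all genes were called. WARS1 rose by 0.42 ± 0.03 (SE, limma adjusted p = 0.00112), AARS1 by 0.23, IARS1 by 0.21 and GARS1 by 0.20. VARS1, the valine enzyme (chr6:31777518-31795752), fell from 42.3 and 43.9 to 34.4 and 33.2 FPKM with no overlap, by 0.34 ± 0.04 on the log2 scale (SE, limma adjusted p = 0.00614). FARSA fell by 0.34 as well. The calls of WARS1 and VARS1 held under each alternative apart from the stricter rule, while AARS1 lost its call without resistant DAC replicate 2, GARS1 without resistant DMSO replicate 1 or either resistant DAC replicate, FARSA without either resistant DMSO replicate or resistant DAC replicate 1, and IARS1 without any 1 of the parental DMSO, resistant DMSO or resistant DAC libraries.

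Of the 16 mitochondrial genes, IARS2 rose with DAC in resistant cells, by 0.15 ± 0.02 (SE, limma adjusted p = 0.0140), and the others were not called. That call was lost without resistant DMSO replicate 1, at 0.13, and without either resistant DAC replicate, at 0.15. The summed cytosolic level was 1054 and 1057 FPKM with DMSO and 1080 and 1086 with DAC, and the mitochondrial sum 199 and 198 with DMSO and 204 in both libraries with DAC. Of the integrated stress response list, 17 of 25 rose and 0 fell, with a median of 0.26. Here 5.88% of all genes were called higher and 5.35% lower. ATF4 rose by 0.26, the pseudokinase gene TRIB3 by 1.63, the transcription factor ATF5 by 0.64 and DDIT4, an inhibitor of mTOR signalling, by 0.57. Of the 12 tested partners of the synthetases, 1 rose, XPOT at 0.43, and 1 fell, MTFMT at -0.32.

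The 2 DAC effects were then compared with each other, as the resistant effect minus the parental effect. Of the cytosolic genes, 13 had a higher and 4 a lower effect in resistant cells, with a median of 0.61 beside -0.05 over all genes, and 49.3% of all genes were called, 20.9% higher and 28.4% lower. By the stricter rule 5 were higher and 1 lower, with 10.6% of all genes called, 3.46% higher and 7.16% lower. Upper-quartile scaling gave 15 higher and 2 lower by the main rule, and quantile scaling turned TARS1, one of the higher ones at 0.28, to -0.083. AARS1 differed by 1.61 (95% interval 1.51 to 1.71), YARS1 by 1.46, GARS1 by 1.38, and IARS1 and WARS1 by 1.27 each. LARS1 and QARS1 differed by 0.82 and 0.76. FARSA differed the other way, by -1.13 (95% interval -1.33 to -0.92, limma adjusted p = 0.000101), with a rise in parental and a fall in resistant cells.

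The lower effects in resistant cells were those of FARSA, VARS1, HARS1 and KARS1, at -1.13, -0.29, -0.24 and -0.21. CARS1, NARS1 and RARS1 were not called, with differences of 0.08, 0.10 and -0.18. Of the 16 mitochondrial genes, 1 had a higher effect (TARS2, 0.28) and 6 a lower one in resistant cells, with a median of -0.20. The 43.75% called are near the 49.3% of all genes, of which 20.9% were higher and 28.4% lower. The lower ones ran from -0.54 in EARS2 to -0.24 in RARS2. Rescaling to TPM gave 2 higher and 4 lower, and quantile and upper-quartile scaling 3 higher and 4 lower. When each of the 8 libraries was left out in turn, the call was lost in 6 cases for TARS2 (0.20 to 0.37 over the 8), in 6 for RARS2 (-0.30 to -0.19), in 7 for SARS2 (-0.64 to -0.37) and in 5 for HARS1 (-0.28 to -0.21). All 4 calls were lost without either parental DAC replicate or without resistant DAC replicate 2, SARS2 kept its call only without parental DMSO replicate 1, TARS2 and RARS2 lost theirs without that library, and HARS1 lost its call without parental DMSO replicate 2. Among the ATF4-listed synthetases 10 of 13 had a higher effect in resistant cells, with a median of 0.72. In the integrated stress response list it was 20 of 25, with a median of 1.203. By comparison, 20.9% of all genes were called higher in this term.

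**Figure D4:**
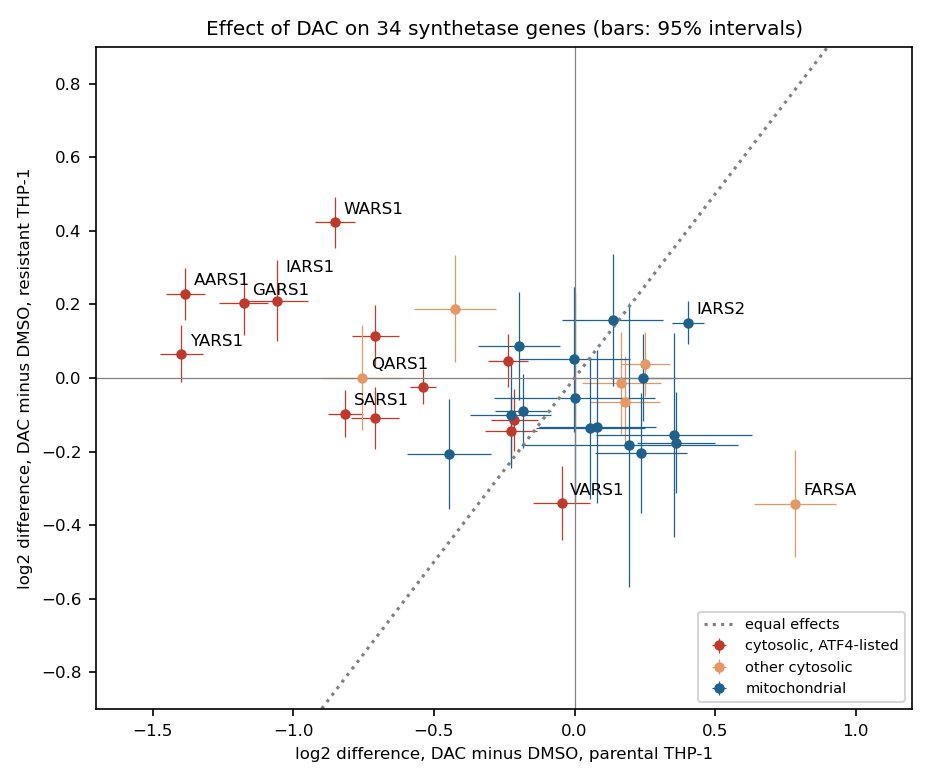
Log2 difference with DAC in parental (x axis) against resistant (y axis) THP-1 cells for 34 tested synthetases, with 95% intervals from limma and a dotted line where both effects are equal. Most ATF4-listed cytosolic genes (red) lie left of 0 and near or above 0 on the y axis, AARS1 for example at -1.38 and 0.23, and FARSA lies at 0.78 and -0.34.

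Without drug, resistant cells had more of most synthetases than parental cells. Of the cytosolic genes 13 were higher and 5 lower in resistant cells, with a median of 0.30 beside 0.02 over all genes, and of the mitochondrial genes 12 were higher and 1 lower, with a median of 0.36. Of all genes 57.5% were called, 31.3% higher and 26.2% lower. By the stricter rule 1 synthetase was called, CARS1 as higher, and 8.73% of all genes in either direction, 4.45% as higher. The added 1 FPKM shrinks the differences of low genes under this rule. The mean FPKM of FARS2 was 2.43 times the parental one but its difference 0.77, against 2.23 times and 1.08 for CARS1. The lines did not overlap for 34 of 36 synthetases and for 78.6% of all genes. Upper-quartile scaling gave 11 cytosolic genes higher and 7 lower. When each of the 8 libraries was left out in turn, some calls of higher genes were lost. MARS2 lost its call in 5 cases, LARS2, WARS2 and TARS1 in 3 each and GARS1 in 2. This comparison shares the parental DMSO libraries with the parental DAC comparison, so the values are given side by side only.

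CARS1, the cysteine enzyme (chr11:3000922-3057613), was at 9.74 and 10.2 FPKM in parental and 21.8 and 22.6 in resistant cells with DMSO, and at 8.22 and 8.53 in parental and 20.04 and 19.99 in resistant cells with DAC. The lines did not overlap in either treatment, and the DMSO difference was 1.08 ± 0.04 (SE, limma adjusted p = 2.91e-06). VARS1 was at 22.6 and 21.0 FPKM in parental and 42.3 and 43.9 in resistant cells, a difference of 0.95. MARS1 was higher in resistant cells by 0.65, at 67.4 and 65.8 FPKM, WARS1 by 0.48, KARS1 and AARS1 by 0.42 each, and YARS1 by 0.25.

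The cytosolic genes that were lower in resistant cells included QARS1 by -0.34, SARS1 by -0.27, HARS1 by -0.20 and EPRS1 by -0.07. SARS1, the serine enzyme (chr1:109213918-109238182), was at 74.1 and 74.4 FPKM in parental and 62.2 and 61.0 in resistant cells. The groups did not overlap. EPRS1 (chr1:219968600-220046530) was at 163 and 164 FPKM against 156 in both resistant libraries, and rescaling to TPM turned this small difference to 0.0024. Its call was also lost without any 1 of the 4 libraries compared, and that of HARS1 without parental DMSO replicate 1 or resistant DMSO replicate 2.

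Among mitochondrial enzymes, IARS2 was higher in resistant cells by 0.93 ± 0.02 (SE, limma adjusted p = 9.59e-07). FARS2, the mitochondrial phenylalanine enzyme (chr6:5261044-5829192), was at 0.952 and 0.995 FPKM with DMSO and 0.962 and 1.14 with DAC in parental cells, and at 2.36, 2.37, 2.00 and 2.13 in resistant cells. The lines did not overlap, while the parental groups overlapped each other, and the DMSO difference was 0.77 ± 0.08 (SE, limma adjusted p = 0.000267). EARS2 and AARS2 were higher by 0.74 and 0.55. YARS2 (chr12:32727490-32755897) was the exception, at 10.2 and 12.1 FPKM in parental and 8.46 and 7.05 in resistant cells, a difference of -0.47 (limma adjusted p = 0.0136). That call was lost without parental DMSO replicate 2 and without resistant DMSO replicate 2, at -0.36 in both, and 18.1% of its exon bases overlap another gene on the opposite strand.

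The mitochondrial sum was 132 FPKM in both parental and 199 and 198 in the resistant libraries, and without IARS2 it was 83.3 and 83.1 against 106 and 102. Of 76 mitochondrial ribosomal proteins, 37 were higher and 7 lower in resistant cells, with a median of 0.23. Over all genes 31.3% were higher and 26.2% lower, and the 57.5% called in either direction are near the 57.9% of these proteins. Of the synthetase partners, 4 of 12 were higher and 2 lower. EEF1E1, a scaffold of the multisynthetase complex also called AIMP3, was higher by 1.45, from a mean of 2.68 to 9.08 FPKM. Of the integrated stress response list, 16 of 25 were higher and 6 lower, with a median of 0.20, and ATF4 was higher by 0.19. All 4 tested elongation factors were lower, with a median of -0.46.

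**Figure D5:**
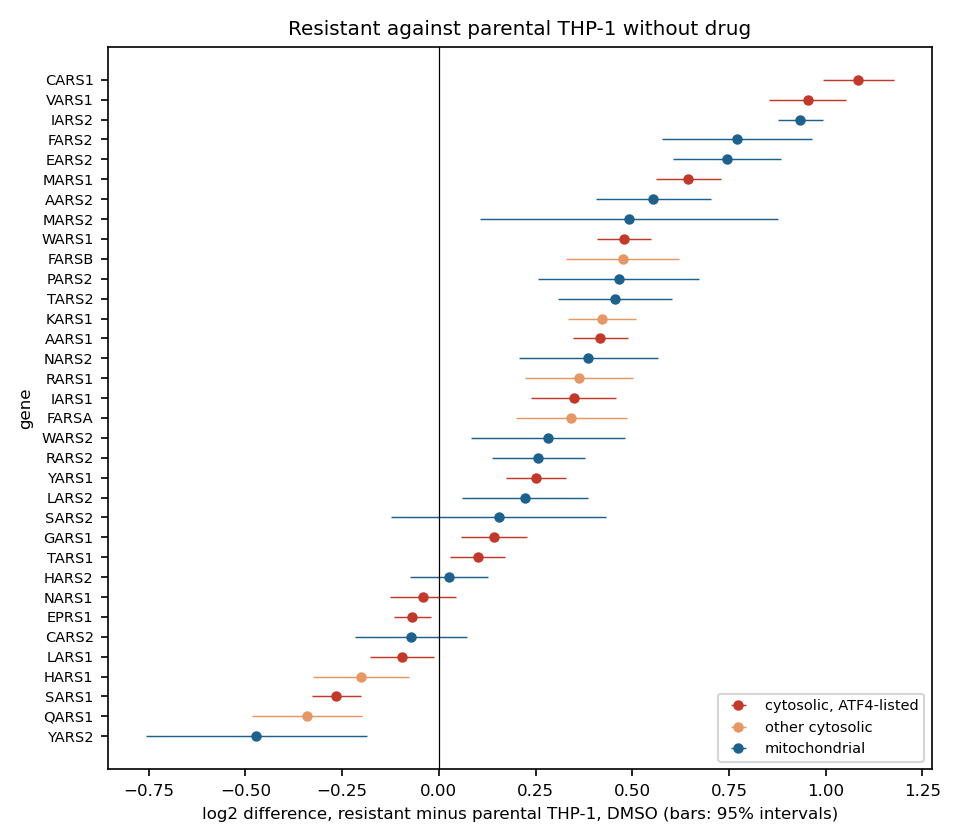
Log2 difference between resistant and parental THP-1 cells with DMSO for 34 tested synthetases, ordered by size, with 95% intervals from limma. On this log2(FPKM + 1) scale, CARS1 at 1.08, VARS1 at 0.95 and IARS2 at 0.93 lie furthest to the right and YARS2 at -0.47 furthest to the left.

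With DAC in both lines, most cytosolic synthetases were higher in resistant cells. Of 20 cytosolic genes 17 were higher and 2 lower in resistant cells, with a median of 0.56 beside -0.03 over all genes, of which 67.0% were called, 32.0% higher and 35.1% lower. By the stricter rule 8 cytosolic genes were higher, against 14.5% of all genes called and 5.29% called higher. The lines did not overlap for 33 of 36 synthetases and for 83.0% of all genes. AARS1 was 4.21 times, WARS1 3.46 times, YARS1 3.45 times, IARS1 3.35 times and GARS1 3.06 times the parental level in FPKM. FARSA and HARS1 were lower in resistant cells, by -0.78 and -0.45. This comparison shares its libraries with both DAC comparisons.

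Of the 16 mitochondrial genes, 9 were higher and 3 lower in resistant cells with DAC, with a median of 0.16, and both TPM and quantile scaling gave 9 higher and 1 lower. The calls numbered 6 without parental DAC replicate 1, as 5 higher and 1 lower, and 7 without resistant DAC replicate 1. Among the higher ones EARS2 and PARS2 lost their calls without parental DAC replicate 1 or either resistant DAC replicate, HARS2 without those or either parental DMSO replicate, and WARS2 without parental DAC replicate 1. AARS2 was higher by 0.79, TARS2 by 0.74 and IARS2 by 0.68. The lower ones were YARS2 (11.2 and 11.02 FPKM in parental, 6.70 and 8.18 in resistant cells), SARS2 (1.31 and 1.43, 0.789 and 0.927) and LARS2 (2.80 and 2.67, 2.13 and 2.29), none of which overlapped between the lines. LARS2 lost its call without resistant DAC replicate 1, at -0.18, and without either parental DAC replicate, and SARS2 without any 1 library other than the parental DMSO ones. The mitochondrial value lay below the cytosolic one in 12 of 16 pairs, with a median gap of -0.61. FARS2, at 0.58, was again paired with FARSA (-0.78), while FARSB was at 1.09.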

How the data were processed

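RNA-seq of 8 THP-1 libraries was used, in 4 groups of 2 labelled biological replicates. Per the labels, the authors trimmed with cutadapt 1.9.1, aligned to hg38 with HISAT2 2.1.0 and counted with HTSeq 0.13.5, and they deposited FPKM values multiplied by 1000, for 60664 genes and 1264 repeat families. Whether the counting used strand is not given in the sources used here.

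Values were divided by 1000. The fit took every gene that reached 1 FPKM in 2 or more libraries, on the log2(FPKM + 1) scale. It used limma 3.58.1 (R 4.3.3) with a mean for each of the 4 groups and a variance trend (2.50 prior and 4 residual degrees of freedom) and Benjamini-Hochberg adjustment over 14899 genes. A pseudocount understates the change of low genes. An exact permutation test of 2 against 2 cannot give a two-sided p below 0.333, and the p-values here draw on the variance that limma pools over genes. The stricter call asked for a log2 difference of at least 1 beside an unadjusted p no higher than 0.01.

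Whole reads were recovered with GENCODE v44 exon lengths for 87.1% of values above 0 (tolerance 0.02 reads) and served as depth and for voom. Positions are GENCODE v44 on GRCh38. Replicates of a group differed by more than sampling noise (mean chi-square of 4.00 to 4.26 per gene). Same-numbered replicates did not deviate together (correlations -0.022 to 0.020).

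The members and gene lists were chosen with earlier results of these data known. Named by rule were the 8 cytosolic members with the largest difference between DAC effects, the 4 mitochondrial ones with the largest difference in any comparison, WARS1, and members called against most of their compartment, some of these last with values only for the libraries compared. Others were chosen after their values were seen. From pathway lists the 3 largest differences and ATF4 are named, and ribosomal proteins are counted only. The fit was tested on simulated data. The alternatives were another pseudocount, 2 other filters, scaling to TPM, by quantiles or by the upper quartile, the replicate block, 4 libraries only, voom, no variance trend, the stricter call, and each library left out. Some members are counted but not reported by name here.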

Additional observations from a re-analysis of the deposited data

Results flagged for a closer look

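In 24 of the 36 tested synthetases the DAC effect differed between resistant and parental cells in limma's interaction term, at an adjusted p under 0.05. Values are given for 22 of them and are the resistant minus the parental effect on the log2 scale. The higher ones included AARS1 1.61, YARS1 1.46, GARS1 1.38, IARS1 1.27, WARS1 1.27, LARS1 0.82, QARS1 0.76, SARS1 0.72, FARSB 0.61, MARS1 0.60, EPRS1 0.52, TARS1 0.28 and TARS2 0.28. Quantile scaling turned TARS1 to -0.083. The lower ones included FARSA -1.13, EARS2 -0.54, SARS2 -0.51, LARS2 -0.44, VARS1 -0.29, IARS2 -0.25, HARS1 -0.24, RARS2 -0.24 and KARS1 -0.21. FARSA and FARSB, the 2 subunits of 1 enzyme, have opposite signs. Over all genes 49.3% were called in this term. No group had the 4 libraries that a check for a lone outlying sample needs.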

How the results depend on the processing

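Of 180 differences (36 members in 5 comparisons), 127 kept their direction and side of the threshold under every alternative that gave them a value, apart from the stricter rule. A mean of at least 5 FPKM gave values for 140 of them and the 4 libraries alone for 144. With 2 libraries per group, small calls rest on single libraries, and for the changed counts the cause was not tested. Quantile scaling moved the median of all genes in parental cells from 0.06 to -0.05 and turned TARS1 to 0.12 there and to -0.083 in the difference between effects, and TPM turned EPRS1 between the lines to 0.0024.

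Cytosolic genes called by the stricter rule numbered 4 in parental cells, 0 in resistant cells, 1 between the lines with DMSO, 8 with DAC and 6 in the difference between effects, and mitochondrial ones 0 in each. FARS2 missed it between the lines with DMSO at 0.77 on the log2(FPKM + 1) scale, with a mean FPKM 2.43 times the parental one. With a mean of at least 5 FPKM, 8 mitochondrial genes were tested, and 6, 2, 7 and 5 were called in the first 4 of these, against 10, 1, 13 and 12, the added call in resistant cells being a lower one. In resistant cells, voom gave 12 cytosolic and 4 mitochondrial calls, the 4 libraries alone 3 and 0, and no variance trend 0 mitochondrial ones. No filter left 4 mitochondrial calls in the difference between effects.

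Leaving out 1 library gave 17 to 19 cytosolic and 6 to 9 mitochondrial calls in parental cells, 3 to 6 and 0 to 1 in resistant cells, 14 to 18 and 9 to 13 between lines with DMSO, 18 to 20 and 6 to 11 with DAC, and 16 to 17 and 4 to 6 in the difference. The count fell to 6 mitochondrial calls without parental DAC replicate 2 in parental cells. In resistant cells it fell to 3 and 0 without resistant DMSO replicate 1 or either resistant DAC replicate. With DAC it fell to 6 without parental DAC replicate 1 and to 7 without resistant DAC replicate 1, and in the difference to 4 without either parental DAC replicate, resistant DMSO replicate 2 or resistant DAC replicate 2.

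With the replicate block, 175 of 180 differences kept their call, RARS1 gained one in the difference between effects (-0.18), and 4 were lost, HARS2 at 0.12 with DAC and SARS2 at 0.35, -0.35 and -0.51. The numbers are not shown to pair the samples.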
